A study of Mus musculus with 11 samples.

Results

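The circadian clock genes described here are 10 genes of the core oscillator and its output: the repressors Per1, Per2, Per3, Cry1 and Cry2, the activator Arntl, the nuclear receptors Nr1d1 and Nr1d2, and the transcription factors Dbp and Tef. They were chosen by gene symbol, and all 10 were found among the 16228 genes of the table. RNA was sequenced from punches of mouse cerebral cortex at postnatal day 30, as 1 library per biological replicate, with no treatment. The knockout groups were 4 animals labelled Ng2 Cre+ Prkci f/f (Prkci cKO) and 3 labelled Ng2-Cre+ Prkcz f/f (Prkcz cKO), in which a recombinase driven by regulatory sequence of Ng2 (Cspg4) acts on floxed genes of the atypical protein kinase C family in oligodendrocyte precursors and other NG2-positive cells. The animals they were set against were 4 controls, of which 2 (replicates 3 and 4) were labelled Pkcz f/f and 2 (replicates 1 and 2) Pkcz f/+, so every control carried a floxed Pkcz allele. The control labels list no Cre and no floxed Prkci allele, so the Prkci cKO line had no floxed control of its own here. The sources used here do not say at what time of day the animals were killed.

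The clock is a feedback loop. ARNTL (also called BMAL1) pairs with CLOCK and switches on the Per and Cry genes from E-box sequences, and the PER and CRY proteins then block that pair. NR1D1 and NR1D2 (REV-ERB alpha and beta) repress Arntl through ROR elements, while DBP and TEF act on D-box sequences. Over a day the messenger RNAs of Dbp, Nr1d1 and the Per genes therefore rise and fall against that of Arntl in most tissues, and in cortex the Per1 gene also responds to neuronal activity.

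The elements through which these genes are known to act on each other are shown here as background, and no result below was set against them. RefSeq promoter windows on GRCm38.p6, running 250 bases before to 50 after a gene's start, were matched for 9 of the 10 members, all but Per2 (12 windows, since some genes have several starts). They were searched on both strands for the E-box CACGTG, the D-box TTATGTAA or TTACGTAA, and the core of the ROR element, TAGGTCA or TGGGTCA; these motifs do not contain one another. The E-box was found in 4 of the 12 windows, from 3 genes, and in 7.15% of all 32851 windows. The D-box was found in 1 member window, where it occurred at 2 positions, and in 1.06% of all windows, and the ROR core in 1 member window and 6.45% of all. Each sequence below is the 250 bases before a start, read 5′ to 3′ along the gene's strand, with the motif in capitals. For Arntl, where the match lay 30 bases past the start, 30 bases around it are given.
Per1, upstream start, chr11:69098699-69098948, plus strand: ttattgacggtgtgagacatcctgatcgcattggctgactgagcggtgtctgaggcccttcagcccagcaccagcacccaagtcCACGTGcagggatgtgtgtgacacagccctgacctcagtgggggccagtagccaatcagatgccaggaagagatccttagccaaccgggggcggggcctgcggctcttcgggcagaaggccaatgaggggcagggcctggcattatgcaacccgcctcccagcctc
Per3, chr4:151044666-151044915, minus strand: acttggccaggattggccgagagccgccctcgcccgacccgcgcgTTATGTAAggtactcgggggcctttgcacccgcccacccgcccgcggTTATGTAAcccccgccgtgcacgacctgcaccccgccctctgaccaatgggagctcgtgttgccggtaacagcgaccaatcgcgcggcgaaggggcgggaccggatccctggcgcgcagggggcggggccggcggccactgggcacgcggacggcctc
Cry1, chr10:85185055-85185304, minus strand: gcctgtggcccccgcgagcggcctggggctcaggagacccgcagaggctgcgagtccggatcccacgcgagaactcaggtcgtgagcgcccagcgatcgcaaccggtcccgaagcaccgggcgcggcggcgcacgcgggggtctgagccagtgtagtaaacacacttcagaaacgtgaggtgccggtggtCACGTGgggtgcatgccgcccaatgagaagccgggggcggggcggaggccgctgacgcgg
Tef, upstream start, chr15:81802423-81802672, plus strand: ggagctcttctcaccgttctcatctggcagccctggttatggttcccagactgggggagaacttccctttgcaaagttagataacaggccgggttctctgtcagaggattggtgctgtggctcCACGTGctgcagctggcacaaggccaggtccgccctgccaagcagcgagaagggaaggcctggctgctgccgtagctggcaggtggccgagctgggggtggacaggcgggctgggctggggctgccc
Tef, downstream start, chr15:81811164-81811413, plus strand: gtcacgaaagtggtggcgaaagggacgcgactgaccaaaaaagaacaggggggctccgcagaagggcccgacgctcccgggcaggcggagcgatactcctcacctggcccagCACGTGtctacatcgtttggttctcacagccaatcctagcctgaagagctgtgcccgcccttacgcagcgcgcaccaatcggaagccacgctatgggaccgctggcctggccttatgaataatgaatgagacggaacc
Arntl, chr7:113207530-113207559, plus strand: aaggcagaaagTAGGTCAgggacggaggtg
The capitals mark an E-box in Per1, Cry1 and Tef, both D-boxes in Per3 and the ROR core in Arntl. These matches describe the sequences, and whether the sites were bound in this tissue was not measured. Per2 had no window and was not searched, so the lack of a sequence for it says nothing of its promoter.

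Depth was lowest in a Prkcz cKO library. The smallest step between low values gave an effective depth of about 14740000 reads in Prkcz cKO replicate 3 and 20620000 to 28170000 in the other 10. The least abundant members, Per2 and Cry1, then rested on about 251 and 260 reads in their lowest library, a counting error near 6.31% and 6.20% of the value. Prkci, the targeted gene, had normalised values of 65.0 to 68.3 in Prkci cKO, 82.4 to 91.5 in Prkcz cKO and 85.3 to 90.7 in controls, and Prkcz had 307 to 324 in Prkci cKO, 262 to 292 in Prkcz cKO and 298 to 347 in controls, so each was lowest in its own line. Against controls, Prkci passed in Prkci cKO (log2 change -0.39, limma adjusted p = 0.000984). Prkcz did not pass in Prkcz cKO (log2 change -0.22). Markers of cortical neurons were high, with 7 of 7 measured and a summed value between 3127 and 3435. Of 6 markers of the suprachiasmatic nucleus, the master clock of the hypothalamus, 3 were measured, with a summed value between 31.4 and 47.6. Vip made up nearly all of that sum, with group means between 38.1 and 43.2. Prok2 and Lhx1 were near 0, with group means of at most 0.265 and 0.0475, and Avp, Nms and Six6 were not measured. In bulk tissue, fewer cells of a type and less RNA per cell cannot be told apart.

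Per unit of exon length, Tef was the most abundant member and Per3 the least. Normalised values per kilobase of exon over 11 libraries averaged 46.7 for Tef, 34.9 for Nr1d1, 26.5 for Cry2, 20.0 for Nr1d2, 14.0 for Dbp, 10.9 for Per1, 7.0 for Arntl, 5.81 for Cry1, 4.27 for Per2 and 3.40 for Per3. Each member lay above the next in all 11 libraries, except that Dbp exceeded Per1 in 9 and Per2 exceeded Per3 in 8. The order of these neighbours was therefore not fixed across libraries. Nr1d1 shares its position with Thra, and Dbp with Sphk2, both on the opposite strand. Because the sources used here do not say whether counting used strand, the levels of Nr1d1 and Dbp are uncertain to that extent. Per3 overlaps Camta1 on the same strand.

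**Figure D1:**
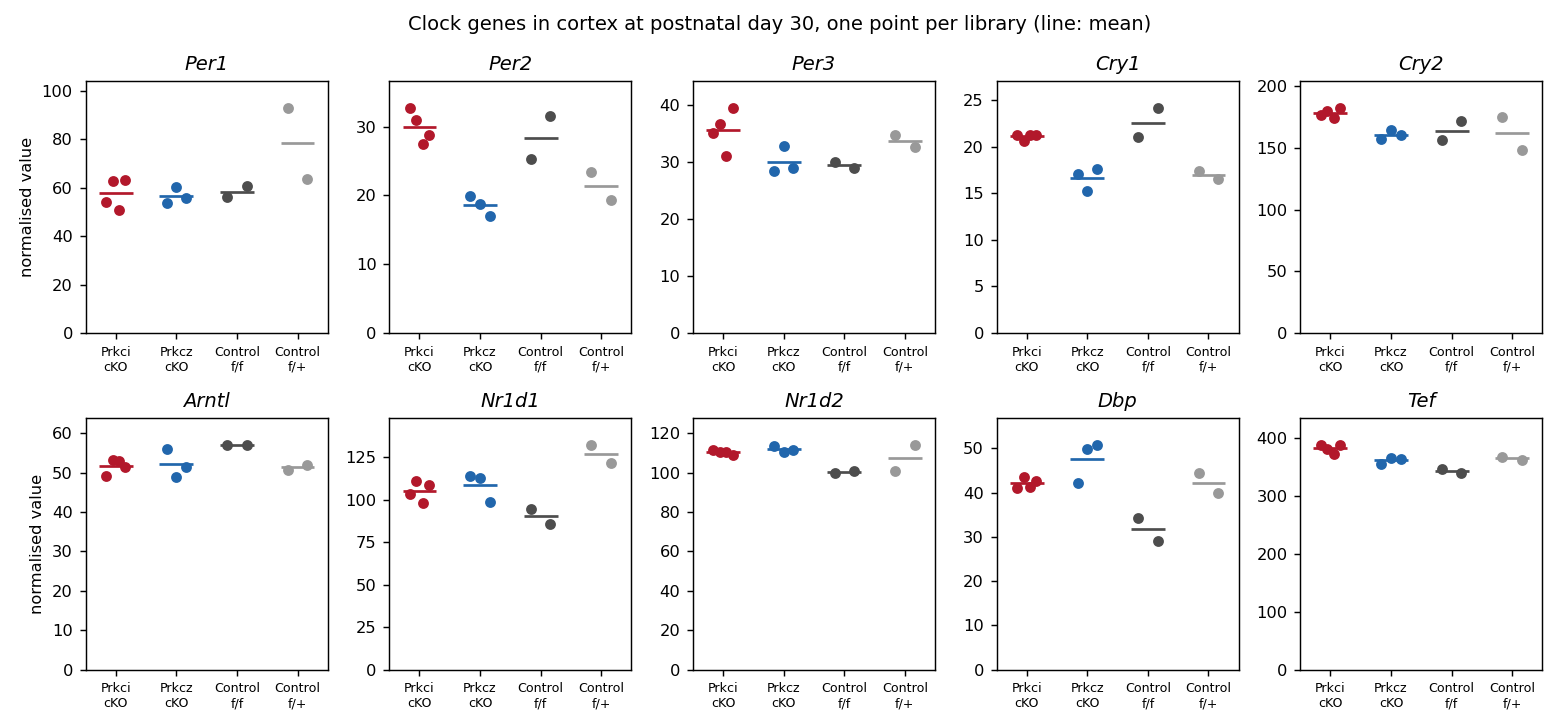
Normalised expression value (vertical axis, from 0) of each clock gene in Prkci cKO (n = 4), Prkcz cKO (n = 3), Control f/f (n = 2) and Control f/+ (n = 2); points are libraries and lines are means. Per2 was between 27.5 and 32.7 in Prkci cKO, above every Prkcz cKO library (17.0 to 19.9), and the control genotypes lay apart for Nr1d1 and Dbp.

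The first question was whether the clock genes differed between cortex with floxed Prkci and cortex with floxed Prkcz. One member passed. Per2 was higher in the Prkci cKO animals than in the Prkcz cKO animals, whereas Arntl, Nr1d1 and Nr1d2 had log2 differences of -0.01, -0.04 and -0.02 that did not pass. Per2 was 32.7, 31.0, 27.5 and 28.8 in the Prkci cKO libraries against 19.9, 18.8 and 17.0 in the Prkcz cKO libraries. The groups did not overlap, and the controls spanned the gap between them, at 23.4, 19.3, 25.3 and 31.5. The log2 difference was 0.68 (SE 0.125, limma adjusted p = 0.0397), or 59.9% higher. Over all genes, 0.300% were called in this comparison and 0.237% were called higher in Prkci cKO. The size of the Per2 difference changed little when any 1 library was left out (0.62 to 0.73), but its call did: leaving out Prkci cKO replicate 1, 2 or 4 gave an adjusted p of 0.144, 0.125 and 0.0816 in that order, and leaving out Prkcz cKO replicate 2 or 3 gave 0.108 and 0.181. The call also ended without a variance trend (adjusted p = 0.0900) and with the replicate number as a block (adjusted p = 0.0530), and over the 21 alternatives tried the adjusted p ranged from 0.00484 to 0.181.

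Cry1, Cry2 and Per3 had differences of the same sign as Per2 without passing. Cry1 was 21.3, 20.6, 21.3 and 21.3 in Prkci cKO against 17.1, 15.3 and 17.6 in Prkcz cKO. These groups did not overlap, and the log2 difference was 0.34 (95% interval 0.11 to 0.57 before any adjustment for the number of genes; limma adjusted p = 0.189). Cry2 was 176, 179.8, 174 and 182 in Prkci cKO and 157, 164 and 160.2 in Prkcz cKO, a log2 difference of 0.15 (adjusted p = 0.237). Both cryptochromes thus had all 4 Prkci cKO libraries above all 3 Prkcz cKO libraries. Per3 had a log2 difference of 0.24 (adjusted p = 0.236) with overlapping groups. Per1 was at 57.7 ± 6.19 (SD, n = 4) in Prkci cKO and 56.7 ± 3.39 (SD, n = 3) in Prkcz cKO, with a log2 difference of 0.02 (95% interval -0.27 to 0.32).

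The activator and the receptors that repress it gave no such separation. Arntl was 49.2, 53.1, 52.8 and 51.3 in Prkci cKO against 55.9, 48.8 and 51.4 in Prkcz cKO, so the groups overlapped. Its log2 difference was -0.01, with a 95% interval of -0.14 to 0.12. Nr1d1 differed by -0.04 (-0.30 to 0.22) and Nr1d2 by -0.02 (-0.13 to 0.09). Dbp, the D-box activator, had its lower values in Prkci cKO, at 41.1, 43.6, 41.4 and 42.7 against 42.1, 49.8 and 50.8 in Prkcz cKO. That log2 difference of -0.17 did not pass (adjusted p = 0.479), and the groups overlapped. Tef, its relative, was higher in every Prkci cKO library (372 to 389) than in any Prkcz cKO library (356 to 367), with a log2 difference of 0.08 (adjusted p = 0.378).

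In all, 4 of 10 members (Per2, Cry1, Cry2 and Tef) were higher in Prkci cKO with no overlap between the knockout groups, where 7.36% of all genes tested were. At an unadjusted p of 0.05, 4 of 10 passed (Per2, Per3, Cry1 and Cry2, but not Tef), against 16.0% of all genes. The median log2 difference was 0.05 over the members and -0.01 over all genes. Vascular markers were higher in the same libraries. Of 8 endothelial markers, 3 of 8 passed the adjusted test, among them the growth factor receptors Flt1 (0.68) and Kdr (0.92) and the platelet-binding protein Vwf (0.85). Their summed value was 199 to 218 in Prkci cKO, 139 to 147 in Prkcz cKO and 171 to 191 in controls, with no marker at 0. Of 7 mural cell markers 2 passed, Rgs5 (0.44) and Myl9 (0.68), and the sums were 96.6 to 106 in Prkci cKO and 74.4 to 78.1 in Prkcz cKO. All 8 markers of striatal neurons lay below 0 in the same contrast, with none past the adjusted test and no overlap between the groups. Over all 14330 genes tested, 921 were lower in Prkci cKO without overlap. The striatal sums were 356 to 665 in Prkci cKO and 728 to 1625 in Prkcz cKO. All 6 meningeal markers lay above 0, 4 of them without overlap and none past the adjusted test, with sums of 202 to 255 in Prkci cKO and 183 to 206 in Prkcz cKO. Of 6 microglial and 7 astrocyte markers, 3 each were higher in Prkci cKO without overlap and none passed, with microglial sums of 373 to 403 in Prkci cKO and 354 to 369 in Prkcz cKO and astrocyte sums of 5697 to 6437 in Prkci cKO and 4309 to 5487 in Prkcz cKO. The part of these tissues and cell types in the Per2 difference was not tested.

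**Figure D2:**
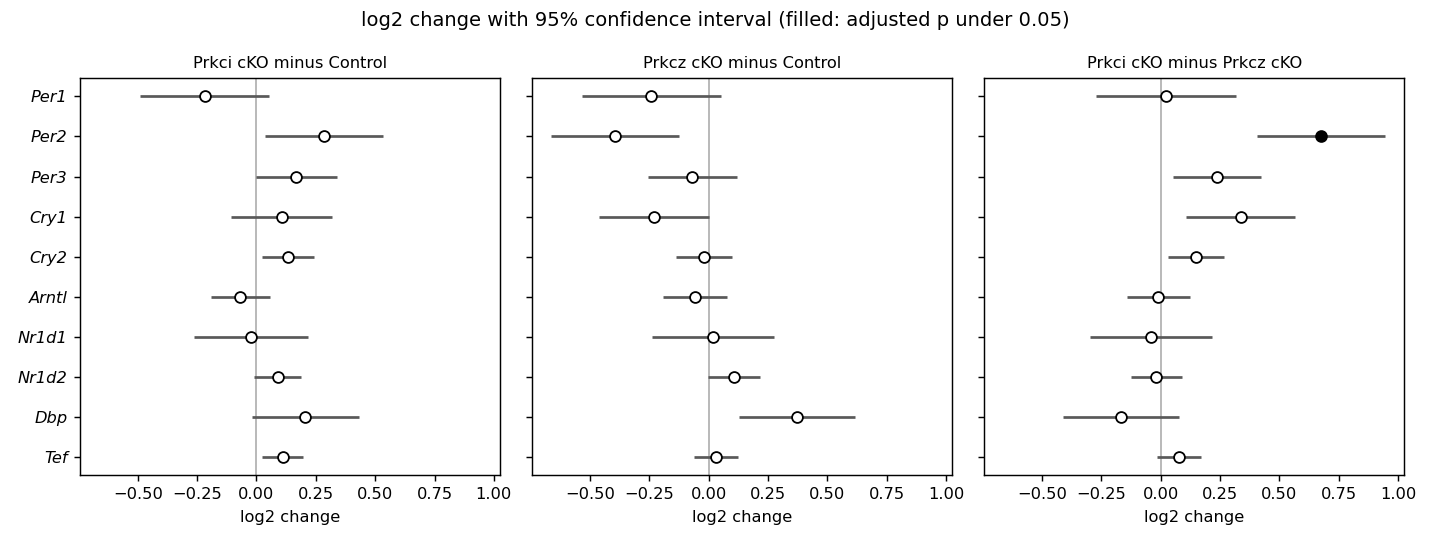
Log2 change of each clock gene (horizontal axis) in Prkci cKO minus Control, Prkcz cKO minus Control and Prkci cKO minus Prkcz cKO, from limma; lines are 95% confidence intervals not adjusted for the number of genes, and filled points have an adjusted p under 0.05. Only Per2 between the knockouts (0.68) is filled, while the intervals of Arntl and Nr1d1 include 0 in each panel.

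The second question was whether either line differed from the controls. Against all 4 controls pooled, none of the 10 members passed in Prkci cKO (limma; 1.61% of all genes were called). Per1 was 54.2, 62.9, 50.8 and 63.1 in Prkci cKO against 92.9, 63.7, 56.2 and 60.5 in controls. A single control, replicate 1, stood above the other 3, and the log2 change was -0.22 (95% interval -0.49 to 0.05; adjusted p = 0.539), falling in size to -0.06 without that replicate. Per2 had a change of 0.28 (adjusted p = 0.332) and Dbp one of 0.21 (adjusted p = 0.476). Tef was 389, 381, 372 and 389 in Prkci cKO and 368, 363, 348 and 339.7 in controls. It was the 1 member with no overlap (3.18% of all genes were higher without overlap), yet its change of 0.11 (SE 0.040) missed the threshold at an adjusted p of 0.254. At an unadjusted p of 0.05, 3 of 10 members passed (Per2, Cry2 and Tef), against 12.1% of all genes. The median change was 0.11 over the members and 0.00 over all genes. Arntl, at 51.6 ± 1.79 in Prkci cKO and 54.1 ± 3.34 in controls (SD, n = 4 each), had a change of -0.07 (95% interval -0.19 to 0.06).

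In Prkcz cKO none of the 10 members passed against all 4 controls either, where 0.649% of all genes were called. Dbp was 42.1, 49.8 and 50.8 in Prkcz cKO against 44.5, 40.0, 34.2 and 29.2 in controls. The groups overlapped through Prkcz cKO replicate 1 and Control replicate 1, and the log2 change was 0.37 (SE 0.113, adjusted p = 0.156). Per2 went the other way, with a change of -0.39 (SE 0.125, adjusted p = 0.174), as did Cry1 with -0.23 (adjusted p = 0.334). Those 3 genes were the members with an unadjusted p under 0.05, against 15.0% of all genes. No member was free of overlap with the controls, while 11.9% of all genes were. Nr1d2 was 114, 110.4 and 111 in Prkcz cKO and 101, 114, 99.8 and 101 in controls, with a change of 0.11 (adjusted p = 0.335). The 2 comparisons with controls share the same control libraries, so a likeness between them is not independent.

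The controls themselves were the most variable group for these genes. The median standard deviation of the members' log2 values was 0.04 in Prkci cKO, 0.10 in Prkcz cKO and 0.18 in controls, beside 0.09, 0.11 and 0.11 over all genes tested. Cry1 ranged only from 20.6 to 21.3 in the 4 Prkci cKO animals, but from 16.6 to 24.2 in controls.

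For several members that spread lay between the control genotypes. The members' median standard deviation was 0.08 within f/f and 0.10 within f/+ controls, beside 0.07 in each over all genes tested. Per1 (92.9 and 63.7), Cry2 (175 and 149) and Nr1d2 (101 and 114) also varied within the f/+ pair. Nr1d1 was 94.5 and 85.9 in the f/f controls against 132 and 121 in the f/+ controls. Dbp was 34.2 and 29.2 in f/f controls against 44.5 and 40.0 in f/+ controls. Both genes, which the ARNTL and CLOCK pair is known to drive, were thus lower in each f/f control than in either f/+ control. Arntl was 57.0 and 57.0 in f/f controls and 50.7 and 51.9 in f/+ controls, Cry1 21.1 and 24.2 in f/f controls and 17.4 and 16.6 in f/+ controls, and Per2 25.3 and 31.5 in f/f controls and 23.4 and 19.3 in f/+ controls. These 3 were higher in both f/f controls. Per1, Per3 and Tef were lower in both f/f controls, and Cry2 and Nr1d2 overlapped. The pairs did not overlap in 8 of 10 members, beside 47.2% of all genes tested, so separation of these pairs was not particular to the clock genes. In a fit with 4 groups, chosen after these values were seen, Nr1d1 had a log2 difference of -0.49 (f/f minus f/+, SE 0.085, limma adjusted p = 0.0481), where 0.154% of all genes were called. That call ended under 14 of 21 alternatives, among them leaving out any 1 control (adjusted p = 0.0614 to 0.453). Cry1 (0.40, adjusted p = 0.172), Dbp (-0.41, adjusted p = 0.182), Per2 (0.40, adjusted p = 0.258) and Per1 (-0.40, adjusted p = 0.322) did not pass. Thra, which overlaps Nr1d1, averaged 377 in f/f controls and 375 in f/+ controls, and Sphk2, which overlaps Dbp, 33.8 in f/f controls and 36.3 in f/+ controls. The summed value of 20 immediate early genes, switched on by neuronal firing, was 1662 to 1870 in f/f controls and 1045 to 1595 in f/+ controls. Genotype at Prkcz, litter, batch and hour of death cannot be told apart with 2 animals of each kind.

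**Figure D3:**
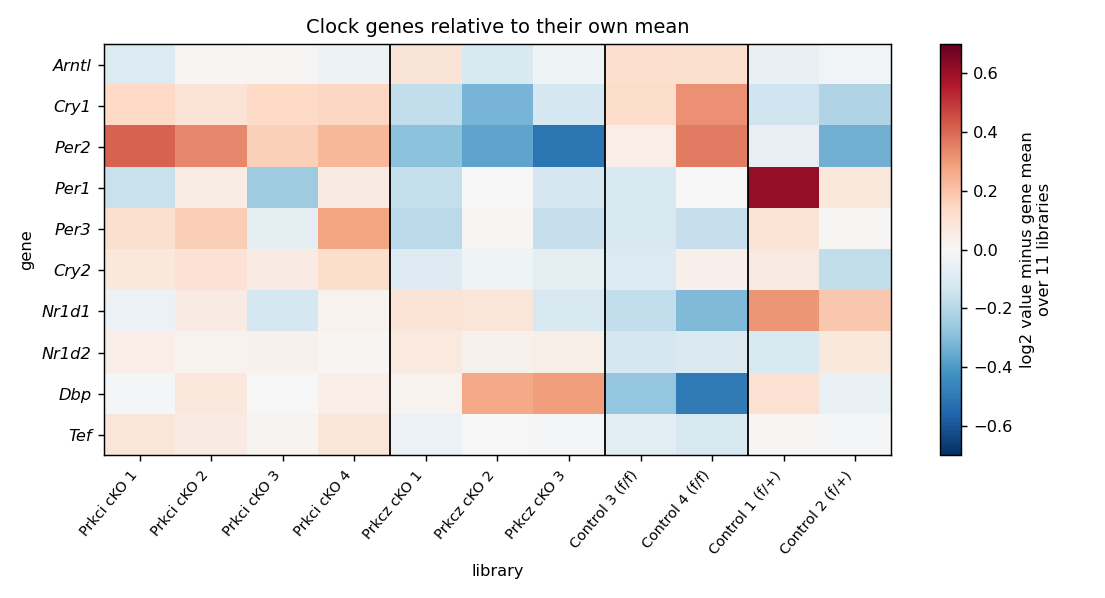
Log2(value + 0.5) of each clock gene minus its mean over the 11 libraries, with genes down the page and libraries across it in the order Prkci cKO, Prkcz cKO, Control f/f and Control f/+; red is above and blue below the gene's mean. Dbp and Nr1d1 are blue and Arntl and Cry1 red in both f/f controls, Per2 is red in 4 of 4 Prkci cKO libraries and blue in 3 of 3 Prkcz cKO libraries, and the darkest cell is Per1 in Control replicate 1.

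The choice of control genotype decided which members were called. Against the 2 f/f controls alone, 0.872% of all genes were called in Prkci cKO and 0.398% in Prkcz cKO. Dbp was called higher in Prkci cKO (0.41, limma adjusted p = 0.0458) and in Prkcz cKO (0.58, adjusted p = 0.0155). Per2 (-0.59, adjusted p = 0.0492) and Cry1 (-0.43, adjusted p = 0.0499) were called lower in Prkcz cKO. Per2 in Prkci cKO had a change of 0.08 there and was not called. The comparison with the 2 f/+ controls alone was added after seeing the data. In it 2.06% of all genes were called in Prkci cKO and 1.38% in Prkcz cKO. Per2 was called higher in Prkci cKO (0.48, adjusted p = 0.0373) and no member was called in Prkcz cKO. The change of Dbp was then -0.00 in Prkci cKO and 0.17 in Prkcz cKO. In Prkcz cKO, Per2 then had a change of -0.19 and Cry1 one of -0.03. Nr1d1 turned round in both lines: it was 0.22 in Prkci cKO and 0.26 in Prkcz cKO against f/f controls, and -0.27 in Prkci cKO and -0.23 in Prkcz cKO against f/+ controls, with none of these values past the threshold. Of 20 immediate early genes, 8 fell in Prkci cKO and 9 fell in Prkcz cKO against the controls together, with sums of 915 to 1062 in Prkci cKO, 792 to 1075 in Prkcz cKO and 1045 to 1870 in controls. Of 10 genes of mature oligodendrocytes, which make myelin, 9 fell in Prkci cKO and 3 in Prkcz cKO, with sums of 2633 to 4281 in Prkci cKO, 3597 to 3946 in Prkcz cKO, 5025 to 5510 in f/f controls and 6586 to 7649.5 in f/+ controls. The part of either list in the clock gene values was not tested.

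The ratio of 2 genes in the same library does not depend on how that library was scaled. The pair of Per2 and Dbp was chosen after the values were seen, so it is given as a description. The Per2 value was 0.795, 0.711, 0.665 and 0.674 of the Dbp value in Prkci cKO and 0.473, 0.377 and 0.335 in Prkcz cKO. In the controls it was 0.738 and 1.08 with f/f and 0.526 and 0.482 with f/+. The 4 Prkci cKO libraries therefore lay above all 3 Prkcz cKO libraries and both f/+ controls, and overlapped the f/f controls. The ratio of Cry1 to Dbp gave a like order, with 0.473 to 0.518 in Prkci cKO, 0.307 to 0.405 in Prkcz cKO, 0.615 and 0.829 in f/f controls and 0.392 and 0.414 in f/+ controls.

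**Figure D4:**
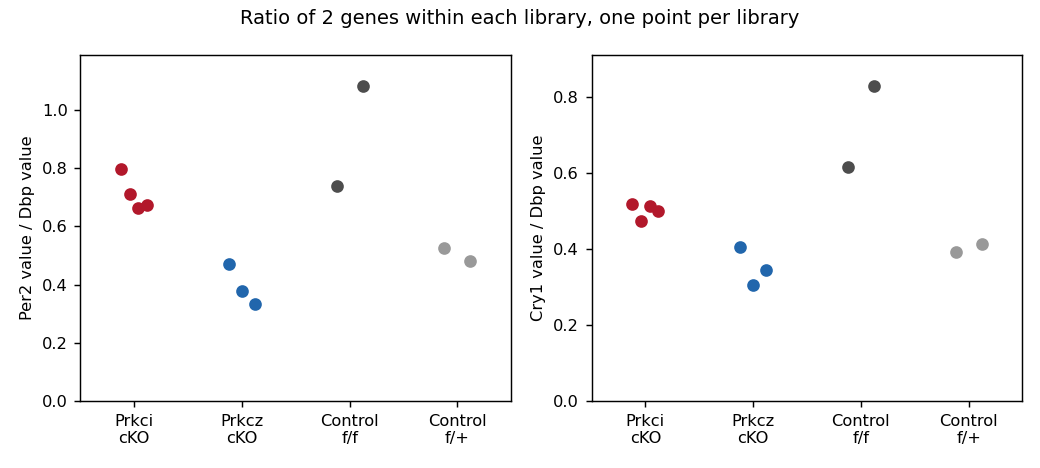
Per2 value divided by Dbp value (left) and Cry1 value divided by Dbp value (right) in each library, by group; points are libraries and the axes start at 0. Per2 over Dbp lies between 0.665 and 0.795 in Prkci cKO and between 0.335 and 0.473 in Prkcz cKO, and is highest (1.08) in an f/f control.

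Within groups, Arntl ran against Tef. Log2 values were centred on the mean of their group, with both control genotypes as 1 group, and 9 relations with Arntl were tested over 11 libraries by exact two-sided permutation within groups. Tef had r = -0.86 (exact permutation p = 0.00463, adjusted p = 0.0417 over the 9 relations) and a Spearman's rho of -0.78 (exact permutation p = 0.0179, adjusted p = 0.161). Without Control replicates 3 and 4, the libraries farthest from the median of Arntl, r was -0.77, for which no p-value was computed. These are the f/f controls, which lay above both f/+ controls for Arntl and below them for Tef. The r over 11 libraries therefore holds a difference between control genotypes too. Dbp (r = -0.77, rho = -0.76; exact permutation p = 0.0599 and 0.0874, adjusted p = 0.156 and 0.257) and Per3 (r = -0.67, rho = -0.66; exact permutation p = 0.0394 and 0.0472, adjusted p = 0.156 and 0.212) did not pass the correction. Cry1, with the highest r of the 9, did not pass at r = 0.69 (rho = 0.68; exact permutation p = 0.114 and 0.121, adjusted p = 0.206 and 0.257), and had 0.37 without the same 2 libraries. Per1 (r = -0.57), Nr1d1 (-0.57), Per2 (0.45), Nr1d2 (-0.22) and Cry2 (-0.14) did not pass either, and the values of Nr1d1 (0.09), Per2 (-0.08) and Nr1d2 (0.28) turned round without those libraries. The relation was thus negative for 7 of 9 members, and for Nr1d1, Nr1d2 and Per2 the sign rested on the f/f controls.

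Of the wider clock pathway, 23 of 23 listed genes were measured and tested, and none passed in any of the 3 comparisons of the study's groups (limma). At an unadjusted p of 0.05, 2 of them passed for Prkci cKO and 3 for Prkcz cKO when set against controls, and 2 between the knockouts, where 12.1%, 15.0% and 16.0% of all genes did, so these counts did not exceed the background. Bhlhe40, a repressor that competes at E-boxes, averaged 73.1 ± 4.44 in 3 Prkcz cKO libraries and 90.1 ± 10.7 in 4 control libraries (mean ± SD), without overlap, at a log2 change of -0.29 (adjusted p = 0.125). Clock, the partner of Arntl, was 105 ± 11.5 in Prkcz cKO and 121 ± 4.72 in controls (-0.21, adjusted p = 0.157). Nfil3, which represses at D-boxes where DBP and TEF activate, was lower by value in both lines, at -0.30 in Prkci cKO (adjusted p = 0.165) and -0.25 in Prkcz cKO (adjusted p = 0.272). Hlf, a relative of DBP and TEF, had a change of 0.10 in Prkci cKO (adjusted p = 0.489). Between the knockouts, the ubiquitin ligase subunit Fbxl21 (-0.38, adjusted p = 0.227), the ubiquitin protease Usp2 (-0.12, adjusted p = 0.292) and Bhlhe40 (0.17, adjusted p = 0.319) had the smallest p. The pathway as a whole thus had a median log2 change against controls of 0.03 in Prkci cKO and 0.01 in Prkcz cKO, and one of 0.01 between the knockouts. Of 12 genes that respond to glucocorticoids, hormones that also drive Per1, Ddit4 passed in Prkci cKO (-0.53, adjusted p = 0.00425) and none passed in the other comparisons; the list's sums were 367 to 384 in Prkci cKO, 366 to 385 in Prkcz cKO and 381 to 413 in controls.

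Per3 lies on chromosome 4 (151003652 to 151044665, GRCm38), 4.22 Mb from Prkcz (155260129 to 155361361), the gene floxed in the Prkcz cKO animals and in the controls but not listed in the labels of Prkci cKO. Its values were 35.2, 36.8, 31.1 and 39.6 in Prkci cKO and 28.5, 32.8 and 29.1 in Prkcz cKO. They were 30.04 and 29.0 in the f/f controls, and 34.8 and 32.7 in the f/+ controls, which are heterozygous for the floxed allele. The highest 3 were all from Prkci cKO animals, but the groups overlapped and the change against controls, 0.17 (SE 0.080), did not pass (adjusted p = 0.430). The other members lie on other chromosomes than Prkcz. Whether the Prkci line carries other sequence around Per3 was not tested.

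Genes outside the members whose levels ran most like 3 of them over the 11 libraries were sought among 12123 genes by Pearson's r on log2 values, as a description. For Per2 these were Mertk (0.95), Notch4 (0.93), Syvn1 (0.92), Fam65b (0.91) and Eltd1 (0.91). For Dbp they were Rnf208 (0.96), 2210403K04Rik (0.94), Chpf2 (0.92), Cirbp (0.92) and Hdac3 (0.92), and for Arntl Top1 (0.92), Sec61a2 (0.92), Sel1l (0.90), Cnot2 (0.90) and Usp15 (0.90). None of these 15 genes was among the 23 of the wider clock list, a fixed list that does not cover every gene linked to the clock. Genotype, depth and tissue make-up differed between the libraries, and their part in these correlations was not tested.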

How the data were processed

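The data were 1 table of 16228 genes in 11 libraries. Its values, deposited by the authors as a normalised signal, summed to between 1021767 and 1082562 per library; the sources used here do not say how they were scaled. The submitters' processing notes name FastQC, Trim Galore, STAR, RSEM and edgeR, with GRCm38. Of the values below 0.5, 86.3% to 89.9% per library fell within 0.005 of a multiple of a common step. That gave relative depth but not whole reads for nearly all genes, so no count test was run. The labels call the replicates biological, and p-values measure the spread between them.

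A gene was tested if its value reached 1 in 3 or more libraries (14330 genes, all 10 members among them). Log2(value + 0.5), on which changes of low genes come out too small, was fitted over the 11 libraries with limma 3.58.1 in R 4.3.3, using a variance trend and 1 term per group. Two-sided p-values were adjusted over all genes by the Benjamini-Hochberg method, with a threshold of 0.05, and the fit was tested on simulated data. Alternatives were other pseudocounts, filters, scalings (TMM, quantile), weights and control sets, the replicate number as a block, and fits without each library in turn. Positions and exon lengths are from GENCODE M21 (GRCm38), which held 14179 of the symbols once; Ciart and Cipc were matched as Gm129 and 2310044G17Rik. Named genes were all members, the other clock genes with the 3 smallest p per comparison (1 of them is not reported here), the 5 genes most like Per2, Dbp and Arntl, and up to 3 markers per list between the knockouts; Ddit4 and the genes that overlap members were named after their values were seen. The members and lists were chosen with earlier results of these data known.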

Additional observations from a re-analysis of the deposited data

Results flagged for a closer look

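Among 20 groups of 4 libraries examined (the 10 members in Prkci cKO and in controls), 2 held a library far from the other 3, where chance gives about 1 in 20. Cry1 was 20.6 in Prkci cKO replicate 2 and 21.3 in each of the others, a gap smaller than the counting error. Nr1d2 was 114 in Control replicate 2, above 101, 99.8 and 101 in the other controls. The Per2 difference between the lines, 0.68 on the log2 scale (limma adjusted p = 0.0397), is the Prkci cKO against Prkcz cKO comparison given in the results, since shared controls cancel; its call ended under 7 of 21 alternatives.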

How the results depend on the processing

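Of the member counts, those with a call were the least stable: they moved in 7 of 21 alternatives between the knockouts and in 14 of 21 between control genotypes. Against controls they were 1 in Prkci cKO with either control genotype alone and 3 in Prkcz cKO with f/f controls, and 0 with any 1 library left out. Between the knockouts, Per2 kept its direction in 21 of 21 alternatives but lost its call in 7; the count was 0 without a variance trend (adjusted p = 0.0900) and with a replicate block (log2 difference 0.63, adjusted p = 0.0530), and 0 to 1 with 1 library left out. For f/f against f/+ controls the count was 0 with pseudocounts of 0.1 or 1, no filter, a minimum of 5, no trend or the replicate block, and 0 to 1 with 1 library left out.

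All genes called in Prkci cKO against controls (230) became 346 with array weights, 125 with f/f controls and 94 to 350 with 1 library left out. In Prkcz cKO against controls (93) they became 30 without a trend, 28 with only those 2 groups, 57 with f/f controls, 198 with f/+ controls and 12 to 111 with 1 library left out. Between the knockouts (43) they became 112 with array weights, 73 with the replicate block and 10 to 151 with 1 library left out. Between control genotypes (22) they became 12 without a trend, 114 with only those 2 groups, 0 with the block and 5 to 40 with 1 library left out.

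Directions that turned round were those of changes near 0 or of the control choice. In Prkci cKO against controls, Nr1d1 was 0.0247 with array weights, 0.22 with f/f controls and -0.13 to 0.0788 with 1 library left out, Cry1 -0.093 with f/f controls, and Arntl 0.0083 and Dbp -0.0004 with f/+ controls. In Prkcz cKO against controls, Cry2 was 0.012 with quantile normalisation, 0.0079 with array weights, 0.0006 with the block and -0.0604 to 0.0172 with 1 library left out. There, Nr1d1 was -0.23 with f/+ controls, -0.0266 with the block and -0.0864 to 0.12 with 1 library left out, Per3 was 0.0263 with f/f controls, and Arntl was 0.0186 and Tef -0.0128 with f/+ controls. Between the knockouts, Arntl was 0.0178 with array weights and -0.0555 to 0.0424 with 1 library left out, Nr1d1 0.0035 with the block, and Per1 -0.0215 to 0.0815 with 1 library left out. Cry2 between control genotypes was -0.0928 to 0.14 with 1 library left out. Correlations with Arntl became -0.0776 for Per2, 0.0881 for Nr1d1 and 0.28 for Nr1d2 without the 2 libraries farthest from its median. The cause was not tested.

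No label says what a shared replicate number marks. Same-numbered libraries of different groups deviated together at r = -0.19 to 0.20 (median 0.09), over 0.1 in 5 of 10 pairs, against a median of -0.01 and 4 of 30 for different numbers. Libraries correlated best with their own number in 12 of 20 checks, a hint of pairing from the data and not from the design; since not every pair exceeded 0.1, the fit without the block was kept. Where 1 library was left to a control genotype, it was assumed to vary like the other groups. Depth leaves a counting error of up to 6.31% for the members. The sources used here do not give the hour of collection, the scaling of the deposited values or the strand used in counting.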
